A study of Mus musculus with 18 samples.

Results

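Chemokines and their receptors were followed across the livers of a chronic-plus-binge ethanol study in *Apoe* knockout (KO) and wild-type (WT) mice. The members are genes of the deposited expression table whose symbol begins with Ccl, Cxcl, Cx3cl, Ccr, Cxcr, Cx3cr or Ackr followed by a number, together with *Ccrl2*. This rule uses names and no measured value, and 33 of the 15052 genes in the table are described under it, 20 ligands and 13 receptors. Polyadenylated liver RNA was sequenced from 18 mice in 4 groups, with 4 pair-fed WT mice (labelled Ctrl_WT), 5 pair-fed *Apoe* KO mice (Ctrl_ApoE), 5 EtOH-fed WT mice (EtOH_WT) and 4 EtOH-fed *Apoe* KO mice (EtOH_ApoE, numbered 1, 2, 4 and 5). All were 10 to 12 weeks old and labelled female, and all first took a control liquid diet for 5 days. EtOH-fed mice then drank a diet with 5% ethanol by volume for 10 days and were gavaged with 5 g/kg ethanol on day 11. Pair-fed mice took an isocaloric diet for the same time and were gavaged with 9 g/kg maltose dextrin, and livers were taken 9 h after the gavage. According to the methods, WT mice were C57BL/6J and the *Apoe* KO was a purchased line that lacks the gene in the whole body, so the KO cannot be tied to 1 cell type. Whether KO and WT mice were littermates is not stated, and each liver is a mixture of all its cells.

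Each value is a gene's read count after the authors scaled all mice to nearly the same total and rounded to whole numbers. Totals lay between 32267493 and 32292618 and do not show depth. From the spacing of low values, 16 of 18 mice could be placed between 5.60 and 52.2 M reads on genes, with 1 read worth 0.618 units (EtOH-fed WT mouse 1) to 5.76 units (pair-fed WT mouse 1), and 3 of the 4 EtOH-fed *Apoe* KO mice, with 2.39 to 4.10 units per read, were shallower than the 3 resolved EtOH-fed WT mice. In those 16 mice, 15 of the 33 members rested on at least 10 estimated reads each time, and 18 fell under 10 reads in at least 1 mouse. *Apoe* itself lay between 611230 and 798431 in the 9 WT mice and between 8586 and 108651 in the 9 KO mice, the highest of these in pair-fed *Apoe* KO mouse 4. EtOH-fed *Apoe* KO mouse 1 did not match its female label, with *Xist* at 826 against 15227 to 30379 in the other mice, and with the Y-linked genes *Ddx3y* at 1077 and *Eif2s3y* at 898 against at most 118 and 86 elsewhere. The members called in comparisons with this mouse, and the counts of marker and pathway lists in those comparisons, are also given without it (the list counts as an alternative added after the data were seen).

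Chemokines are small secreted proteins that direct leukocytes along concentration gradients by binding receptors coupled to G proteins. CXC ligands such as CXCL1 act mainly on neutrophils, many CC ligands act on monocytes and macrophages through CCR1 and CCR2, and CXCL9, CXCL10 and CXCL16 recruit T and NK cells. Atypical receptors bind chemokines without coupling to G proteins and scavenge or transport them, and in the liver Kupffer cells, sinusoidal endothelium, stellate cells and hepatocytes are all known sources of ligands.

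The members fall into gene clusters. On chromosome 11, 7 CC ligand genes lie within 1.61 Mb, and there are 5 CXC ligand genes within 5.20 Mb of chromosome 5 and 8 receptor genes within 20.0 Mb of chromosome 9. None lies on chromosome 7, which carries *Apoe*. The RefSeq promoter table (build GRCm38.p6, 250 bases before to 50 bases after each transcript start) matched 26 of the 33 members, at 31 starts. It held no entry for *Ccl2*, *Ccl5*, *Ccl7*, *Ccl24*, *Ccr7*, *Cxcl5* and *Cxcl16*. The motifs searched, on both strands, were the κB consensus, an interferon-stimulated response element core (ISRE, GAAANNGAAA), the PU.1 motif (GAGGAAGT) and the AP-1 motif (TGACTCA or TGAGTCA). The promoters of 4 ligands whose RNA moved in different directions in the values below are shown, with every match in capitals. In *Cxcl1*, chr5:90890995-90891294 on the plus strand, the capitals are 2 overlapping κB matches, and in *Cxcl10*, chr5:92348840-92349139 on the minus strand, they are in order an ISRE core, a κB match, a pair of overlapping κB matches and an AP-1 motif. *Ccl6*, chr11:83593038-83593337 on the minus strand, and *Cxcl12*, chr6:117168285-117168584 on the plus strand, had no match.
Cxcl1: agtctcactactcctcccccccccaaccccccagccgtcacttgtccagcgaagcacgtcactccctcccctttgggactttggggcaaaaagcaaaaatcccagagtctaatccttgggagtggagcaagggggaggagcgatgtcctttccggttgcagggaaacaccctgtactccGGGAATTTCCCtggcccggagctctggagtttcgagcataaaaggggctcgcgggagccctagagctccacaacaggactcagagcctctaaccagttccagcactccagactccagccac
Cxcl10: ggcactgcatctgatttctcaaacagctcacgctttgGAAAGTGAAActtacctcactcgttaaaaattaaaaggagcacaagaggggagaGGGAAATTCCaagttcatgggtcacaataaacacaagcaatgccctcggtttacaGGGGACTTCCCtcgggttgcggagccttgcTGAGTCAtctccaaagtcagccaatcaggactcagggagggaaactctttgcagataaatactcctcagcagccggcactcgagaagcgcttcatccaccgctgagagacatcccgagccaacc
Ccl6: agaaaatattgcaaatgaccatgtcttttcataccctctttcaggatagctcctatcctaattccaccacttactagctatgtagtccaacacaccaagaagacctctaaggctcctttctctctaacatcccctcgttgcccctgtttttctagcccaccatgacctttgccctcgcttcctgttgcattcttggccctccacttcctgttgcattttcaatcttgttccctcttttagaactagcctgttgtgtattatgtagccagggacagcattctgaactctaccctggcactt
Cxcl12: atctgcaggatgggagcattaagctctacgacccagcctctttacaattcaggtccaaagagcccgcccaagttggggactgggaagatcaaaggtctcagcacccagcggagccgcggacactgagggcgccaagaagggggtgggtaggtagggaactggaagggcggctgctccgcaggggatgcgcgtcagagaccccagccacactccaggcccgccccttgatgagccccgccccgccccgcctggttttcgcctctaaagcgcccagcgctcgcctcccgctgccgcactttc
Among all 32851 promoters of this length, 8.46% held the κB consensus, 3.44% the ISRE core, 3.20% the PU.1 motif and 5.20% an AP-1 motif. Of the 26 members with a promoter, 7 held the κB consensus (*Ackr2*, *Ccl27a*, *Ccl9*, *Ccr1*, *Ccrl2*, *Cxcl1* and *Cxcl10*), 2 the ISRE core (*Cxcl10* and *Cxcl14*), 1 the PU.1 motif (*Cxcr3*) and 3 an AP-1 motif (*Ccl27a*, *Cxcl9* and *Cxcl10*). Counted by promoter, as the shares over all promoters are, these were 7, 2, 1 and 3 of 31. A match describes letters in this window and does not mark a bound site.

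Levels of different genes were compared per kb of annotated exon. *Cxcl12*, a ligand made by stromal and other liver cells that retains CXCR4-bearing cells, had the highest level of the 33 members in each group, 1711 units per kb in pair-fed WT mice and 932 in EtOH-fed *Apoe* KO mice. *Ccl9*, a CC ligand for CCR1, was second in each group with 524 to 732 units per kb. *Cxcl1* was the third in pair-fed WT mice (314 units per kb), pair-fed *Apoe* KO mice (392) and EtOH-fed WT mice (353), while in EtOH-fed *Apoe* KO mice *Ccl6* was the third (655) and *Cxcl1* the sixth (151). The intestinal homing receptor *Ccr9* was the lowest member in each group, at 2.39 to 2.73 units per kb. Of the 13 receptors, *Cx3cr1* reached the highest group mean, 49.9 units per kb in EtOH-fed *Apoe* KO mice.

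**Figure D1:**
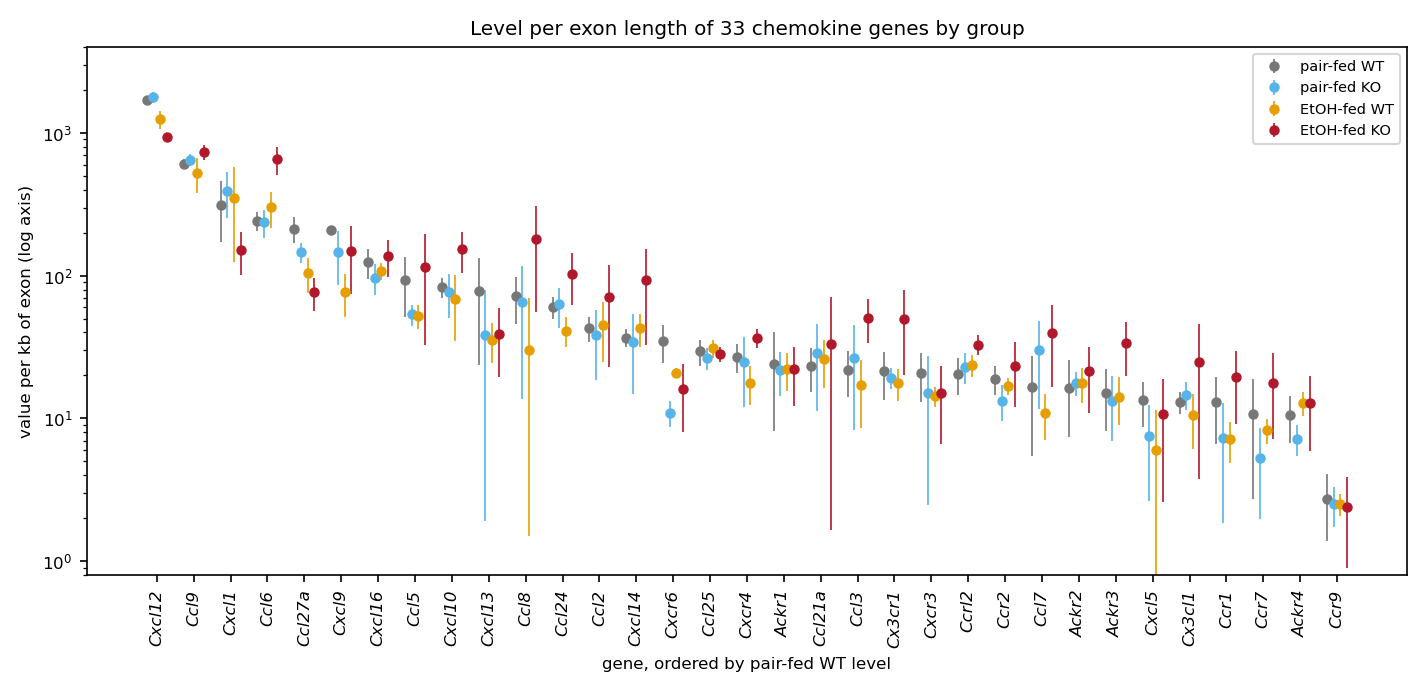
Mean value per kb of exon (log axis) of each of the 33 members in the 4 groups, ordered by the level in pair-fed WT mice; bars are SD over 4 or 5 mice, and lower bars that would reach 0 are shortened. *Cxcl12* is highest in every group, and the EtOH-fed *Apoe* KO mean of *Ccl6* (655) stands above the other 3 group means (237 to 301).

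The deposited comparison asks how the livers of EtOH-fed *Apoe* KO mice differ from those of EtOH-fed WT mice. Of the 33 members, 4 were higher in *Apoe* KO mice and 0 lower (limma on log2(value + 1), Benjamini-Hochberg adjusted p under 0.05 over all 15052 genes), against 4.69% of all genes called (4.25% higher and 0.445% lower). They were the monocyte ligand *Ccl6*, the fractalkine receptor *Cx3cr1*, the T cell ligand *Cxcl10* and the eosinophil ligand *Ccl24*. Without EtOH-fed *Apoe* KO mouse 1 there were again 4 higher and 0 lower, against 620 of all genes called, but the set changed. *Ccl6* stayed, *Cx3cr1*, *Cxcl10* and *Ccl24* were lost, and *Ccl7*, *Ccl8* and *Ackr3* were gained. The count of 0 lower goes with 16 members at an unadjusted p under 0.05, against 18.9% of all genes, of which 1, *Cxcl12*, had a negative fold change. The median log2 fold change was 0.52 over the members and 0.11 over all genes. With median-of-ratios size factors these medians were 0.39 and -0.02, and the calls were 2 higher and 1 lower, with *Cxcl10* and *Ccl24* lost and *Cxcl12* gained, while over all genes 379 of 506 calls were higher, against 639 of 706. The 2 groups did not overlap for 7 members, against 8.13% of all genes. All 8 monocyte-attracting ligands (median 1.07) and the 3 monocyte receptors (median 1.34) had positive fold changes, whereas the lymphocyte-attracting ligands were divided, 5 positive and 3 negative (median 0.18), and of the 2 neutrophil-attracting ligands 1 was positive and 1 negative. In bulk liver RNA, more or fewer cells of a type and more or less RNA per cell cannot be told apart.

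In pair-fed mice, where the same genotypes were compared without ethanol and in other animals, 1 member was called, *Cxcr6*, which was lower in *Apoe* KO mice, against 1.73% of all genes called (0.870% higher and 0.864% lower). By limma, 0 members were higher, and 3 members had an unadjusted p under 0.05, against 19.9% of all genes. The median was -0.18 over the members and near 0 over all genes, 23 of 33 members had negative fold changes, and the 2 groups did not overlap for 1 member, against 7.03% of all genes. Whether the genotype difference itself depended on diet was tested as the interaction of diet and genotype over all 18 mice, in which *Ccl6* was called with a larger *Apoe* KO minus WT difference under ethanol, 1 of 33 members against 2.84% of all genes (2.60% positive and 0.239% negative). Of the interaction estimates, 27 were positive and 6 negative, with a median of 0.85 over the members and 0.11 over all genes. With size factors these medians were 0.71 and -0.03. An unadjusted p under 0.05 by limma was found for 15 members, against 2451 of all 15052 genes.

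**Figure D2:**
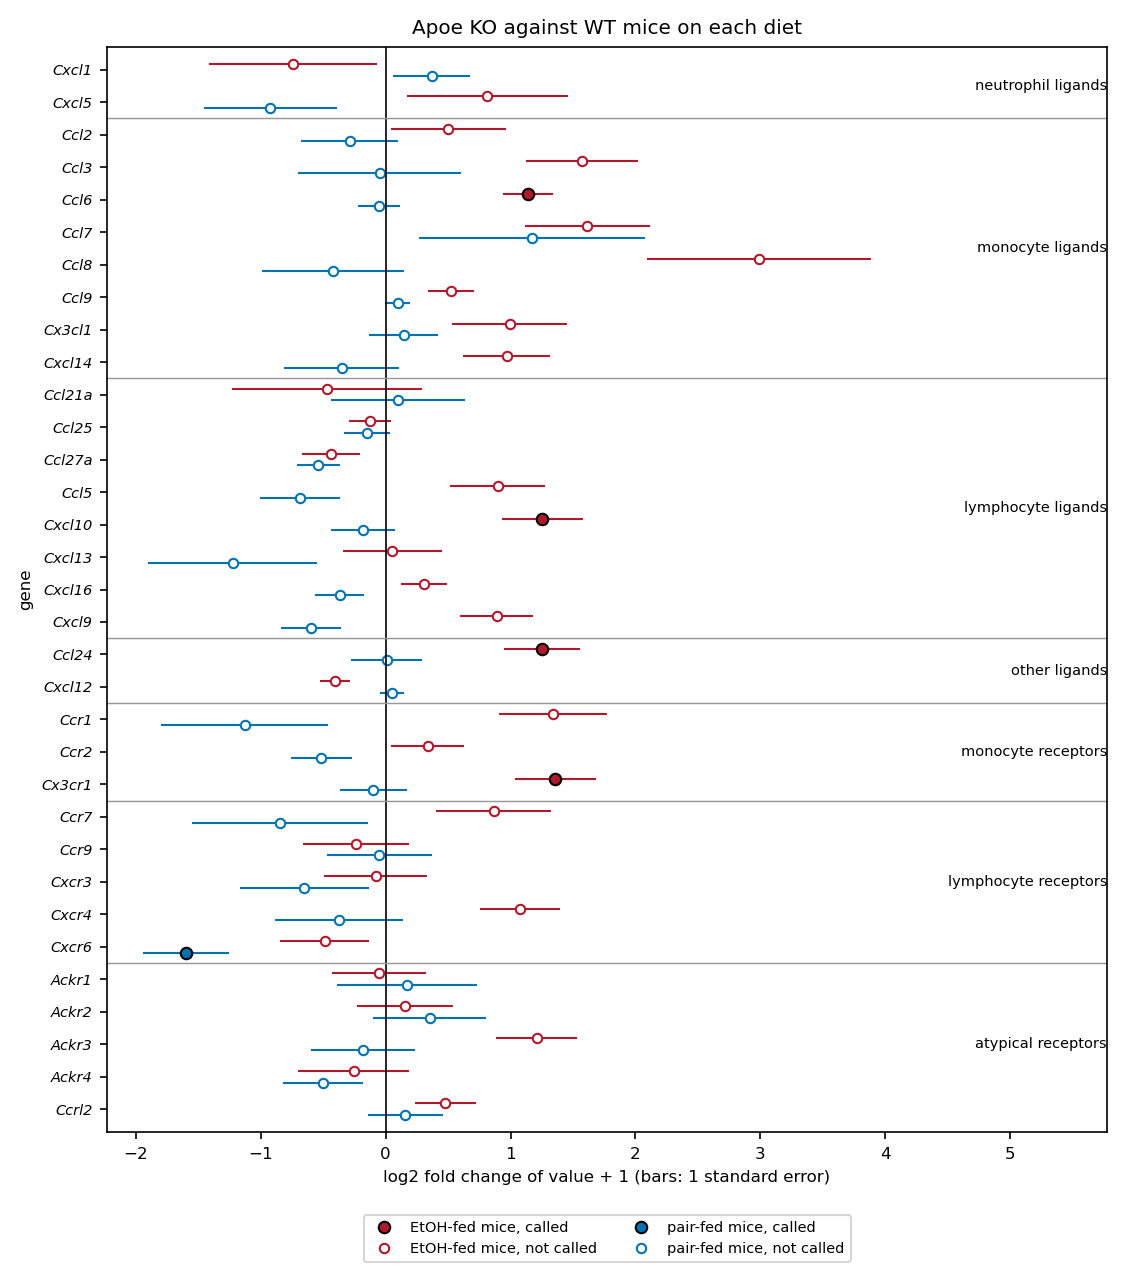
Log2 fold change (value + 1) of *Apoe* KO against WT mice for the 33 members in EtOH-fed mice (red) and in pair-fed mice (blue), by role; bars are 1 standard error and filled points are called. In EtOH-fed mice 4 points are filled, all to the right of 0, and in pair-fed mice 1, *Cxcr6*, to the left.

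The effect of ethanol was compared within each genotype. In WT mice 3 members were lower in EtOH-fed than pair-fed mice and 0 higher, against 12.7% of all genes called (6.19% higher and 6.52% lower), with 7 members at an unadjusted p under 0.05 by limma, against 28.1% of all genes. They were the ligands *Cxcl9*, *Ccl27a* and *Cxcl12*, and groups did not overlap for 4 members (*Ccl24* among them by less than the worth of 1 read), against 14.4% of all genes. In *Apoe* KO mice 5 members were higher and 3 lower, against 23.2% of all genes called (16.3% higher and 6.92% lower). The 5 were *Ccl6*, *Cxcl14*, *Cxcl10*, *Cx3cr1* and the scavenging receptor *Ackr3*, the 3 were *Cxcl12*, *Ccl27a* and *Cxcl1*, and groups did not overlap for 6 members, against 20.0% of all genes. The median over the members was -0.25 in WT mice, with -0.01 over all genes, and 0.52 in *Apoe* KO mice, with 0.13 over all genes. With size factors the last pair became 0.39 and near 0, with 4 members higher and 3 lower, and over all genes 1646 of 3263 calls were higher, against 2446 of 3488. Each diet comparison shares its EtOH-fed mice with the first genotype comparison and its pair-fed mice with the second, so these comparisons are not independent.

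**Figure D3:**
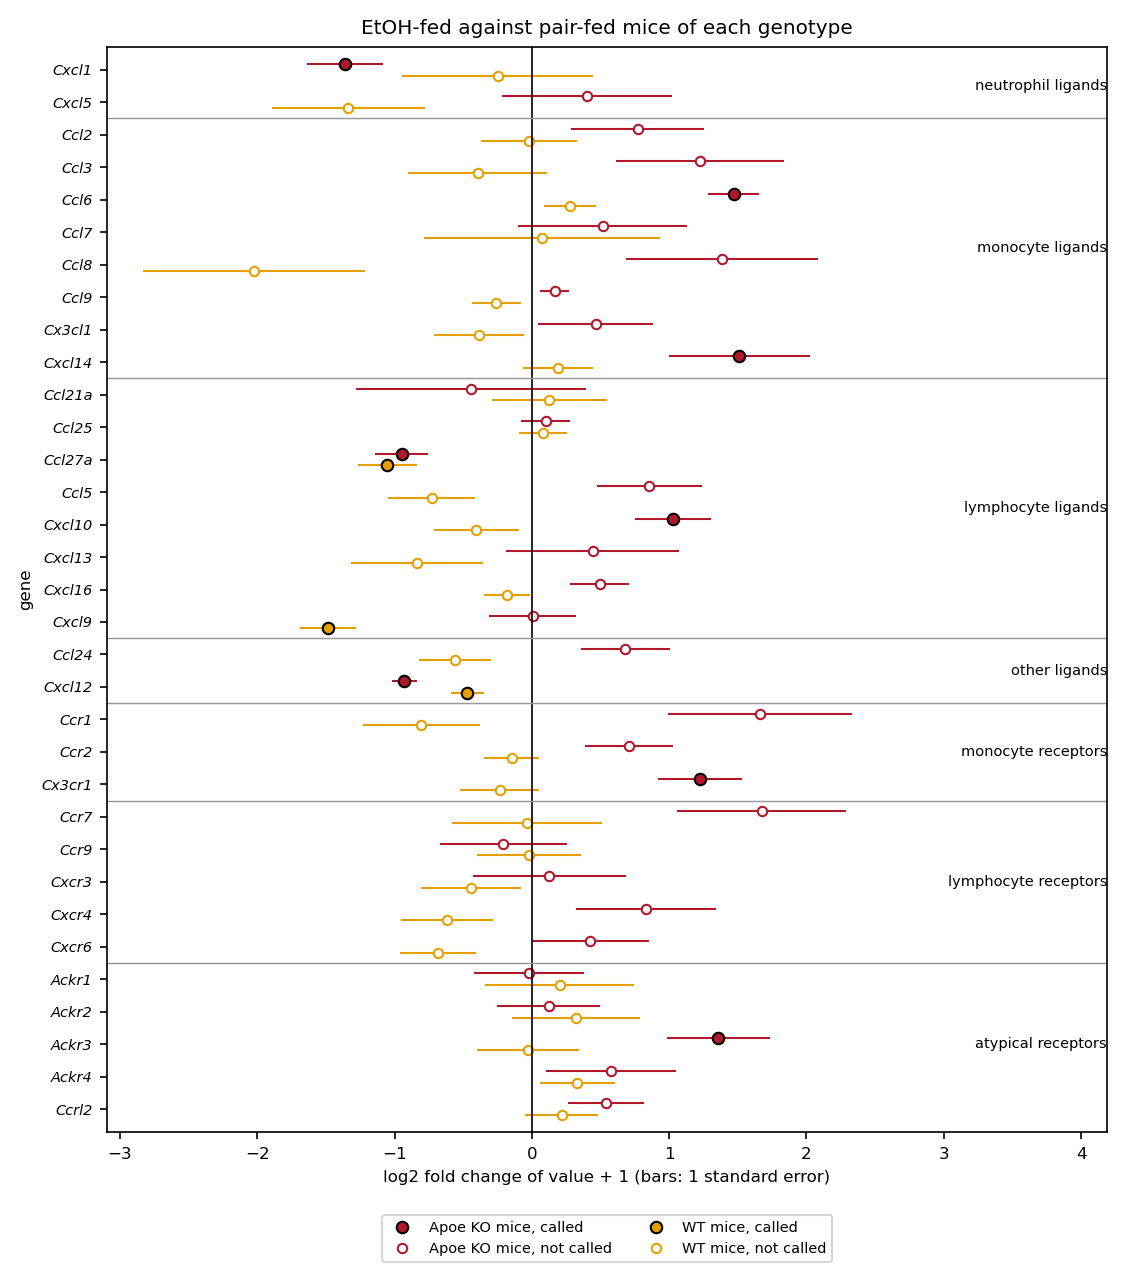
Log2 fold change (value + 1) of EtOH-fed against pair-fed mice for the 33 members in *Apoe* KO mice (red) and in WT mice (orange), by role; bars are 1 standard error and filled points are called. *Cxcl12* and *Ccl27a* are filled and left of 0 in both genotypes, and the 5 filled points to the right of 0 are all from *Apoe* KO mice.

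**Figure D4:**
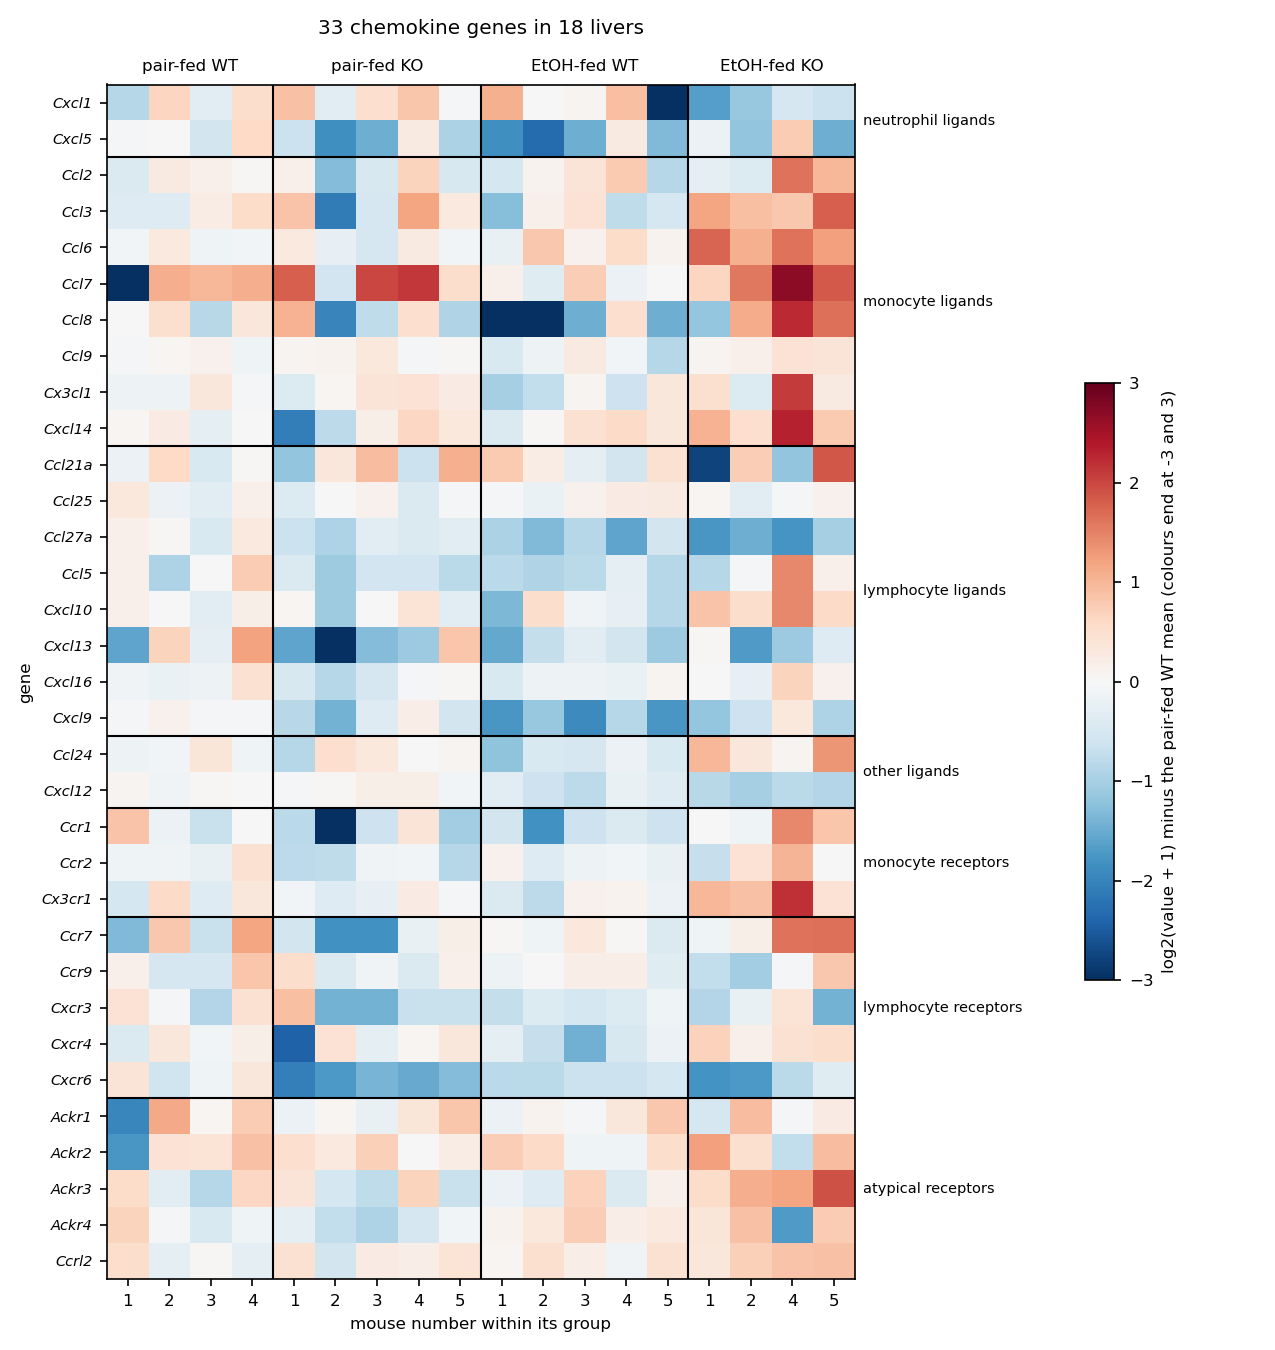
Log2(value + 1) of the 33 members in each of the 18 mice, less the mean of the 4 pair-fed WT mice (red higher, blue lower, colours end at -3 and 3), ordered by role. Most rows of monocyte ligands and monocyte receptors are red in the EtOH-fed *Apoe* KO columns, with *Ccl7*, *Ccl8*, *Cx3cl1*, *Cxcl14* and *Cx3cr1* darkest in mouse 4, and *Cxcl1* is darkest blue in EtOH-fed WT mouse 5.

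*Ccl6* encodes a CC chemokine of macrophages and other myeloid cells. The values of *Ccl6* were 409, 530, 395 and 407 in pair-fed WT and 527, 366, 305, 519 and 409 in pair-fed *Apoe* KO mice. With ethanol they were 372, 758, 474, 629 and 467 in WT and 1454, 905, 1335 and 1011 in *Apoe* KO mice. All 4 EtOH-fed *Apoe* KO values were above those of the other 14 mice. Their mean was 1176 ± 260 (SD, n = 4) against 540 ± 153 (SD, n = 5) in EtOH-fed WT mice, a 2.20-fold difference (log2 1.14, SE 0.20, limma adjusted p = 0.0079). Against pair-fed *Apoe* KO mice the difference was 2.77-fold (log2 1.47, SE 0.18, limma adjusted p = 0.000157). Ethanol in WT mice gave log2 0.28 (SE 0.19, limma adjusted p = 0.376), and the interaction was 1.19 (SE 0.28, limma adjusted p = 0.0251). Without EtOH-fed *Apoe* KO mouse 1 the genotype difference was 1.03 (adjusted p = 0.0243), the diet difference in *Apoe* KO mice 1.36 (adjusted p = 0.000715) and the interaction 1.08 (adjusted p = 0.0463). The genotype call held in each alternative (adjusted p from 0.00176 to 0.0288), while the interaction lost its call in 6 of 23 (adjusted p from 0.0145 to 0.121), namely with array quality weights, with the mouse number as a block and without pair-fed WT mouse 2 or 4, EtOH-fed WT mouse 1 or EtOH-fed *Apoe* KO mouse 4, its value without 1 mouse running from 1.07 to 1.33.

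*Ccl5*, a chemokine for T cells and monocytes and itself a product of T and NK cells, did not pass the test in any comparison. Pair-fed WT mice had *Ccl5* values of 92, 43, 83 and 140 and pair-fed *Apoe* KO mice of 61, 39, 55, 55 and 47. The EtOH-fed groups had 47, 44, 47, 67 and 45 in WT mice and 45, 79, 225 and 92 in *Apoe* KO mice. EtOH-fed *Apoe* KO mouse 4 was the highest of all mice and the groups overlapped. The genotype difference in EtOH-fed mice was 0.90 on the log2 scale (SE 0.38, limma adjusted p = 0.215). Without EtOH-fed *Apoe* KO mouse 1 *Ccl5* was called between diets in *Apoe* KO mice (1.20, adjusted p = 0.0307) and in the interaction (1.93, adjusted p = 0.0337), and without pair-fed WT mouse 2 between diets in WT mice (-1.04, adjusted p = 0.0401).

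*Cx3cr1* encodes the fractalkine receptor of monocytes and some macrophages, and *Cx3cl1* its membrane-bound ligand. For *Cx3cr1*, pair-fed WT mice gave 63, 137, 70 and 116, pair-fed *Apoe* KO mice 87, 70, 77, 108 and 90, EtOH-fed WT mice 67, 53, 100, 98 and 81 and EtOH-fed *Apoe* KO mice 185, 169, 422 and 123. All 4 EtOH-fed *Apoe* KO mice exceeded the 5 EtOH-fed WT mice, although mouse 5 at 123 was under the highest pair-fed WT mouse at 137. The difference between genotypes in EtOH-fed mice was 2.57-fold (log2 1.36, SE 0.33, limma adjusted p = 0.0321), and that between diets in *Apoe* KO mice 2.33-fold (log2 1.22, SE 0.30, limma adjusted p = 0.0111). The genotype call was lost without EtOH-fed *Apoe* KO mouse 1 (1.40, adjusted p = 0.0552) and without EtOH-fed *Apoe* KO mouse 4 or EtOH-fed WT mouse 1, 2 or 5 (value from 1.0 to 1.59 without 1 mouse, adjusted p from 0.00949 to 0.0824 over all alternatives), and the diet call was kept in each (1.26 without mouse 1, adjusted p = 0.0217). The interaction was 1.46 (SE 0.44, limma adjusted p = 0.0803), and it was called with array quality weights (1.53, adjusted p = 0.0473) and with the mouse number as a block (1.93, adjusted p = 0.0339). *Cx3cl1* was measured at 46, 46, 65 and 49 in pair-fed WT, 38, 53, 67, 69 and 61 in pair-fed *Apoe* KO, 25, 30, 54, 33 and 65 in EtOH-fed WT and 71, 38, 221 and 62 in EtOH-fed *Apoe* KO mice. EtOH-fed *Apoe* KO mouse 4 stood far above every other mouse and the other 3 of its group overlapped with the remaining groups. The genotype difference of *Cx3cl1* in EtOH-fed mice was 0.99 (95% interval -0.09 to 2.08, limma unadjusted p = 0.0487, adjusted p = 0.261). This interval includes 0 because it was built with fewer degrees of freedom than limma's test.

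*Ccl2* and its receptor *Ccr2*, which draw monocytes from the marrow and the blood into inflamed tissue, did not pass the test in any comparison. The values of *Ccl2* were 35, 58, 53 and 49 in pair-fed WT and 53, 19, 34, 77 and 34 in pair-fed *Apoe* KO mice. With ethanol they were 33, 52, 63, 83 and 26 in WT and 39, 36, 151 and 96 in *Apoe* KO mice. Mice 4 and 5 of the EtOH-fed *Apoe* KO group had the 2 highest values of all 18, and mice 1 and 2 lay among the WT mice. Pair-fed WT mice had *Ccr2* values of 115, 116, 108 and 171 and pair-fed *Apoe* KO mice of 72, 74, 116, 119 and 69. The EtOH-fed groups had 137, 95, 112, 118 and 108 in WT mice and 77, 169, 254 and 127 in *Apoe* KO mice. The groups overlapped here too, and EtOH-fed *Apoe* KO mouse 4 was again highest. Between genotypes under ethanol *Ccl2* differed by 0.50 (95% interval -0.58 to 1.59, limma adjusted p = 0.619) and *Ccr2* by 0.34 (95% interval -0.35 to 1.03, limma adjusted p = 0.593). A doubling of *Ccl2* lies inside its interval, and for *Ccr2* a doubling lies near the upper limit. Without EtOH-fed *Apoe* KO mouse 1 *Ccr2* was called between diets in *Apoe* KO mice (1.0, adjusted p = 0.0294).

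*Cxcl14*, a CXC ligand that attracts monocytes and dendritic cells, was 2.85-fold higher in EtOH-fed than in pair-fed *Apoe* KO mice (log2 1.51, SE 0.51, limma adjusted p = 0.0484). For *Cxcl14*, pair-fed WT mice gave 69, 79, 55 and 66, pair-fed *Apoe* KO mice 15, 38, 76, 103 and 83, EtOH-fed WT mice 49, 68, 92, 100 and 84 and EtOH-fed *Apoe* KO mice 138, 95, 336 and 115. The groups overlapped, with EtOH-fed *Apoe* KO mouse 4 highest by far and pair-fed *Apoe* KO mouse 1 lowest. The call was lost in 8 of 15 alternatives (adjusted p from 0.0159 to 0.151), among them those without EtOH-fed *Apoe* KO mouse 1 (1.55, adjusted p = 0.0776), EtOH-fed *Apoe* KO mouse 4 or 5 or pair-fed *Apoe* KO mouse 1, 2 or 3 (1.08 to 1.75 without 1 mouse). Of the monocyte ligands not described singly, *Ccl3*, *Ccl7*, *Ccl8* and *Ccl9*, 0 passed the test with limma in any comparison. Their genotype differences in EtOH-fed mice ran from 0.52 for *Ccl9* to 2.99 for *Ccl8* (limma adjusted p from 0.0659 to 0.132), and 3 of the 4 (not *Ccl9*) rested on fewer than 10 estimated reads in some mice. The lowest estimates were 3 reads for *Ccl8*, 2 for *Ccl3* and 0 for *Ccl7*. *Ccl8* lay at 2, 1, 12, 50 and 12 in EtOH-fed WT mice and at 15, 76, 168 and 112 in EtOH-fed *Apoe* KO mice, so that the highest WT mouse exceeded the lowest *Apoe* KO mouse, mouse 1. Without mouse 1 *Ccl8* (3.70, adjusted p = 0.0376) and *Ccl7* (1.96, adjusted p = 0.0481) were called, as was *Ccl8* without EtOH-fed WT mouse 4 (3.63, adjusted p = 0.0263) and *Ccl9* without EtOH-fed WT mouse 3 (0.65, adjusted p = 0.0463). Both *Ccl8* (adjusted p = 0.0327 and 0.00965) and *Ccl9* (adjusted p = 0.0484 and 0.0233) were called with all 4 groups in 1 fit and under the block. The interaction of *Ccl8* (3.41, limma adjusted p = 0.121) was called without EtOH-fed *Apoe* KO mouse 1 (4.12, adjusted p = 0.0483) or EtOH-fed WT mouse 4 (4.05, adjusted p = 0.0446). *Ccl8* was also called between diets without 1 mouse, higher in *Apoe* KO mice without EtOH-fed mouse 1 (2.09, adjusted p = 0.0272) and lower in WT mice without EtOH-fed mouse 4 (-2.66, adjusted p = 0.0317). *Ccr1*, a monocyte receptor of several CC ligands, had no overlap between EtOH-fed genotypes but missed the threshold (1.34, SE 0.43, limma adjusted p = 0.0988), and between diets in *Apoe* KO mice it was called without pair-fed *Apoe* KO mouse 4 (2.04, adjusted p = 0.0466), with all 4 groups in 1 fit (1.66, adjusted p = 0.0456) and with the block (1.79, adjusted p = 0.0454), against 1.66 (limma adjusted p = 0.0906) with the mice of the 2 groups.

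Markers of macrophages were counted in the same comparisons. In EtOH-fed mice 10 of 11 Kupffer cell markers and 9 of 14 monocyte and macrophage markers were higher in *Apoe* KO mice, and 0 of either list were lower. Over all genes 4.25% were called higher there and 0.445% lower. Between pair-fed genotypes 4 of 11 and 5 of 14 were positive. There *Cd163* was lower (-1.91, limma adjusted p = 0.000541) and *Gpnmb* higher (2.03, limma adjusted p = 0.0353) in *Apoe* KO mice. The summed Kupffer markers ran from 7429 to 13410 in EtOH-fed WT mice and from 17145 to 32324 in EtOH-fed *Apoe* KO mice, against 11777 to 21832 in pair-fed WT and 11078 to 21426 in pair-fed *Apoe* KO mice. The monocyte and macrophage markers summed to 4742 to 7042 in EtOH-fed WT, 10081 to 18435 in EtOH-fed *Apoe* KO, 7329 to 12343 in pair-fed WT and 7290 to 9983 in pair-fed *Apoe* KO mice, and 0 markers of either list were at 0 in any mouse. In WT mice 4 Kupffer and 4 monocyte and macrophage markers were lower with ethanol, and in *Apoe* KO mice 6 and 6 were higher. Over all genes 6.52% were lower with ethanol in WT mice and 16.3% higher in *Apoe* KO mice. Without EtOH-fed *Apoe* KO mouse 1 the counts were 8 of 11 and 10 of 14 between EtOH-fed genotypes, and 6 and 5 between diets in *Apoe* KO mice. Of all 15052 genes, 565 and 2377 were called higher in these fits. Markers of B cells were followed too. Of 7, all were positive between EtOH-fed genotypes (median 0.56), and without mouse 1, 6 of 7 were (median 0.68). *Ighm* (1.41) and *Jchain* (1.81), which encode parts of secreted IgM, were higher in *Apoe* KO mice (limma adjusted p = 0.0115 and 0.0169). Both were also higher without mouse 1 (1.53 and 2.16, adjusted p = 0.0177 and 0.0104). The B cell markers summed to 364 to 840 in EtOH-fed WT, 949 to 2036 in EtOH-fed *Apoe* KO, 639 to 1809 in pair-fed WT and 307 to 680 in pair-fed *Apoe* KO mice, with 0 markers at 0, and between pair-fed genotypes 0 of 7 were positive (median -1.05). Other lists between EtOH-fed genotypes had 5 of 5 cholangiocyte, 10 of 12 T and NK cell, 6 of 8 stellate and 4 of 7 hepatocyte markers positive. Of these, *Krt19* of cholangiocytes was called (2.05, limma adjusted p = 0.0445). Without mouse 1 it stayed called (2.31, adjusted p = 0.0448) and *Cd4* was called (1.58, adjusted p = 0.0310). The stellate count was then 5 of 8 positive, and the cholangiocyte, T and NK cell and hepatocyte counts were unchanged. The part of any of these cells in the chemokine values was not tested.

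Among the lymphocyte-attracting ligands, *Cxcl10*, an interferon-induced ligand of CXCR3, was the member with the higher call in EtOH-fed *Apoe* KO mice. *Cxcl10* was measured at 207, 183, 147 and 210 in pair-fed WT, 193, 88, 186, 247 and 148 in pair-fed *Apoe* KO, 72, 267, 171, 157 and 102 in EtOH-fed WT and 338, 265, 504 and 277 in EtOH-fed *Apoe* KO mice. The lowest EtOH-fed *Apoe* KO mouse (265) was just under the highest EtOH-fed WT mouse (267), so the groups overlapped, whereas all 4 exceeded the pair-fed *Apoe* KO mice. The genotype difference was 2.39-fold (log2 1.26, SE 0.33, limma adjusted p = 0.0453) and the diet difference in *Apoe* KO mice 2.04-fold (log2 1.03, SE 0.28, limma adjusted p = 0.0166). The first is near the threshold and was lost in 10 of 15 alternatives (adjusted p from 0.0164 to 0.143), among them each fit without 1 mouse except EtOH-fed WT mouse 2 (1.02 to 1.49), such as that without EtOH-fed *Apoe* KO mouse 1 (1.25, adjusted p = 0.0864), while the second kept its call without that mouse (1.03, adjusted p = 0.0364) and lost it in 1 of 15, without EtOH-fed *Apoe* KO mouse 4 (0.81; adjusted p range 0.00506 to 0.0548). The interaction of *Cxcl10* was called without EtOH-fed WT mouse 2 (1.67, adjusted p = 0.0397).

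*Cxcl9*, the interferon-gamma-induced ligand of the same receptor, was called in WT mice between diets. The values of *Cxcl9* were 605, 682, 606 and 612 in pair-fed WT and 349, 233, 477, 722 and 427 in pair-fed *Apoe* KO mice. With ethanol they were 185, 283, 165, 345 and 186 in WT and 280, 408, 778 and 331 in *Apoe* KO mice. Pair-fed WT mice were closely grouped, and each of the 5 EtOH-fed WT mice lay below all 4 of them. Ethanol in WT mice lowered *Cxcl9* 2.79-fold (log2 -1.48, SE 0.20, limma adjusted p = 0.000613), a call that held in each alternative (adjusted p from 0.000155 to 0.00412). Between EtOH-fed genotypes *Cxcl9* differed by 0.89 (SE 0.29, limma adjusted p = 0.106), which was called with the mouse number as a block (0.78, adjusted p = 0.0188). In *Apoe* KO mice the diet difference was 0.01 (95% interval -0.74 to 0.75, limma adjusted p = 0.993), and the interaction was 1.49 (SE 0.41, limma adjusted p = 0.0546). That interaction was called without EtOH-fed *Apoe* KO mouse 1 (1.68, adjusted p = 0.0321), pair-fed *Apoe* KO mouse 4 (1.69, adjusted p = 0.0216) or EtOH-fed WT mouse 4 (1.64, adjusted p = 0.0341) and with a pseudocount of 10 (1.45, adjusted p = 0.0497). *Cxcr3*, the receptor of both on T and NK cells, did not pass in any comparison. Pair-fed WT mice had *Cxcr3* values of 46, 33, 18 and 47 and pair-fed *Apoe* KO mice of 64, 12, 12, 21 and 21. The EtOH-fed groups had 20, 25, 23, 25 and 31 in WT mice and 18, 29, 45 and 12 in *Apoe* KO mice. All 4 groups overlapped, and the genotype difference under ethanol was -0.08 (95% interval -1.06 to 0.90, limma adjusted p = 0.946), on 3 to 32 estimated reads per mouse.

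*Ccl27a*, a ligand best known from skin T cell homing, fell with ethanol in both genotypes. For *Ccl27a*, pair-fed WT mice gave 553, 508, 364 and 609, pair-fed *Apoe* KO mice 318, 262, 395, 368 and 393, EtOH-fed WT mice 257, 200, 275, 166 and 342 and EtOH-fed *Apoe* KO mice 149, 181, 147 and 250. EtOH-fed mice lay below pair-fed mice of their own genotype without overlap. The change was -1.05 in WT mice (SE 0.21, 2.07-fold lower, limma adjusted p = 0.0068) and -0.95 in *Apoe* KO mice (SE 0.19, 1.93-fold lower, limma adjusted p = 0.00359), with an interaction of 0.10 (95% interval -0.54 to 0.75, limma adjusted p = 0.899). Both calls held in each of the alternatives (adjusted p up to 0.0276 and 0.0114), the second of these without EtOH-fed *Apoe* KO mouse 1 (-0.86). Without pair-fed WT mouse 3 it was also lower in pair-fed *Apoe* KO than in pair-fed WT mice (-0.69, adjusted p = 0.0340), against -0.54 with all mice (limma adjusted p = 0.112). *Ccl27a* stands on 9 lines of the table with identical values, under this symbol and those of near-identical copies, so that its reads may come from more than 1 gene.

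*Cxcl16*, a membrane-bound ligand of macrophages and endothelium, and its receptor *Cxcr6*, which holds NKT and T cells in the sinusoids, were followed as a pair. *Cxcl16* was measured at 340, 323, 330 and 508 in pair-fed WT, 265, 204, 258, 359 and 376 in pair-fed *Apoe* KO, 267, 329, 329, 320 and 393 in EtOH-fed WT and 363, 308, 585 and 400 in EtOH-fed *Apoe* KO mice. Groups overlapped in each comparison and 0 were called by limma, and the genotype difference under ethanol was 0.31 (95% interval -0.14 to 0.75, limma adjusted p = 0.417). The values of *Cxcr6* were 86, 43, 59 and 82 in pair-fed WT and 15, 19, 24, 22 and 26 in pair-fed *Apoe* KO mice. With ethanol they were 37, 37, 41, 41 and 45 in WT and 18, 19, 37 and 50 in *Apoe* KO mice. Each pair-fed *Apoe* KO mouse was below every pair-fed WT mouse, and the 2 EtOH-fed groups overlapped. *Cxcr6* was 3.03-fold lower in pair-fed *Apoe* KO than in pair-fed WT mice (log2 -1.60, SE 0.34, limma adjusted p = 0.0318), on 4 to 53 estimated reads per pair-fed mouse. This call was lost with the mouse number as a block and in 7 of the 9 fits that left out a mouse, those of pair-fed WT mouse 1, 2 or 4 and of pair-fed *Apoe* KO mouse 1, 2, 3 or 4 (adjusted p from 0.0185 to 0.129 over all alternatives), and the value itself stayed between -1.79 and -1.28. Of 12 T and NK cell markers 0 were called between the pair-fed groups by limma. Of these, 7 had an unadjusted p under 0.05, against 19.9% of all genes, and all 12 had negative fold changes. Their sum ran from 440 to 912 in pair-fed WT and from 236 to 465 in pair-fed *Apoe* KO mice, with *Cd4* at 0 in pair-fed *Apoe* KO mouse 1. Their part in the *Cxcr6* value was not tested. The other lymphocyte ligands, *Ccl21a*, *Ccl25* and *Cxcl13*, and the receptors *Ccr7* and *Ccr9* were not called by limma in any comparison, with genotype differences in EtOH-fed mice from -0.47 for *Ccl21a* to 0.86 for *Ccr7*. Leaving out 1 mouse gave a diet call for *Ccr7* in *Apoe* KO mice (1.99 without EtOH-fed *Apoe* KO mouse 1, adjusted p = 0.0474), also called with all 4 groups in 1 fit (1.67, adjusted p = 0.0429), and for *Cxcl13* in WT mice (-1.36 without pair-fed WT mouse 1, adjusted p = 0.0383).

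*Cxcl12*, the most abundant member per kb, fell with ethanol. Pair-fed WT mice had *Cxcl12* values of 14717, 13028, 14321 and 13882 and pair-fed *Apoe* KO mice of 13418, 14427, 15670, 15910 and 13221. The EtOH-fed groups had 11061, 9110, 8149, 11959 and 10614 in WT mice and 7898, 6953, 7999 and 7621 in *Apoe* KO mice. Each EtOH-fed mouse was below every pair-fed mouse, and the 4 EtOH-fed *Apoe* KO mice were below all 5 EtOH-fed WT mice. The change with ethanol was -0.47 in WT mice (SE 0.12, 1.39-fold lower, limma adjusted p = 0.0222) and -0.93 in *Apoe* KO mice (SE 0.09, 1.90-fold lower, limma adjusted p = 2.56e-05). Without EtOH-fed *Apoe* KO mouse 1 the second was -0.95 (adjusted p = 0.000113; up to 0.000423 over the alternatives), and the first was lost without pair-fed WT mouse 1 or EtOH-fed WT mouse 2 (-0.53 to -0.39 without 1 mouse, adjusted p from 0.00423 to 0.0573). The genotype difference under ethanol was -0.41 (SE 0.12, limma adjusted p = 0.0715) and the interaction -0.46 (SE 0.15, limma adjusted p = 0.102), and both were called with size factors (-0.53, adjusted p = 0.0395, and -0.60, adjusted p = 0.0493) and without EtOH-fed WT mouse 3 (-0.48, adjusted p = 0.0316, and -0.54, adjusted p = 0.0366). The genotype difference was also called with all 4 groups in 1 fit (-0.41, adjusted p = 0.0223) and with the mouse number as a block (-0.48, adjusted p = 0.0116). Its receptor *Cxcr4* was not called in any comparison. For *Cxcr4*, pair-fed WT mice gave 35, 61, 45 and 54, pair-fed *Apoe* KO mice 8, 65, 39, 50 and 61, EtOH-fed WT mice 39, 29, 17, 34 and 42 and EtOH-fed *Apoe* KO mice 78, 53, 66 and 69. All 4 EtOH-fed *Apoe* KO values (53 to 78) were above the 5 EtOH-fed WT mice (17 to 42) and overlapped with the pair-fed mice (8 to 65), and the difference was 1.07 (SE 0.32, limma adjusted p = 0.0766).

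*Ccl24*, an eosinophil-attracting CC ligand made by macrophages, was 2.38-fold higher in *Apoe* KO than in WT mice under ethanol (log2 1.25, SE 0.31, limma adjusted p = 0.0357). *Ccl24* was measured at 69, 73, 99 and 71 in pair-fed WT, 42, 110, 96, 77 and 82 in pair-fed *Apoe* KO, 33, 56, 54, 68 and 56 in EtOH-fed WT and 155, 98, 82 and 196 in EtOH-fed *Apoe* KO mice. EtOH-fed WT mice had the lowest mean and did not overlap with EtOH-fed *Apoe* KO mice, and mouse 5 of the EtOH-fed *Apoe* KO group was highest. From pair-fed WT mice they were apart only by 68 against 69 in pair-fed WT mouse 1, where 1 read is worth 5.76 units. The call was lost in 7 of 15 alternatives (adjusted p from 0.0149 to 0.108), among them those without EtOH-fed *Apoe* KO mouse 1 (1.15, adjusted p = 0.0864) or 5 or EtOH-fed WT mouse 1, 2, 3 or 5 (1.03 to 1.45 without 1 mouse), and its diet differences were -0.56 in WT and 0.68 in *Apoe* KO mice (limma adjusted p = 0.183 and 0.149).

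*Cxcl1*, a hepatocyte- and macrophage-derived ligand of CXCR2 that recruits neutrophils, moved in the opposite direction to *Ccl6* between *Apoe* KO groups. The values of *Cxcl1* were 300, 849, 425 and 782 in pair-fed WT and 1001, 426, 766, 962 and 524 in pair-fed *Apoe* KO mice. With ethanol they were 1129, 537, 572, 1016 and 54 in WT and 170, 243, 381 and 342 in *Apoe* KO mice. All 4 EtOH-fed *Apoe* KO mice lay below all 5 pair-fed *Apoe* KO mice, whereas EtOH-fed WT mice spread from 54 in mouse 5 to 1129 in mouse 1 and enclosed every other mouse. With ethanol *Cxcl1* fell in *Apoe* KO mice by 1.36 on the log2 scale (SE 0.28, 2.57-fold lower, limma adjusted p = 0.0036), and without EtOH-fed *Apoe* KO mouse 1 by 1.14 (adjusted p = 0.0109). This call was lost in 1 of 15 alternatives, the fit of all 4 groups together (adjusted p from 0.00128 to 0.103). The genotype difference in EtOH-fed mice was -0.74 (95% interval -2.34 to 0.86, limma adjusted p = 0.618). That value depends on EtOH-fed WT mouse 5, without which it was -1.50 (SE 0.29, adjusted p = 0.0149), and the interaction went from -1.11 (adjusted p = 0.553) to -1.87 (adjusted p = 0.0363). The interaction was -2.11 with mouse number as a block (adjusted p = 0.0477). *Cxcl5*, the second neutrophil ligand, lay between 4 and 41 in all mice and was not called. *Cxcl2* and the receptor *Cxcr2* have no line in the table analysed here, and *Cxcl3*, *Cxcl15* and *Cxcr1* were not analysed either. Of 15 listed neutrophil markers 5 were in the table. *Fpr1* was higher in EtOH-fed *Apoe* KO than EtOH-fed WT mice (1.31, limma adjusted p = 0.0386), a call lost without EtOH-fed *Apoe* KO mouse 1 (1.17, adjusted p = 0.0945). Between EtOH-fed genotypes 5 of 5 markers were positive (median 0.38). Without that mouse, 3 of 5 were positive (median 0.06) and 0 were called by limma. The markers summed to 217 to 276 in EtOH-fed WT and 275 to 635 in EtOH-fed *Apoe* KO mice, the highest in mouse 1. Their sum was 208 to 541 in pair-fed WT and 164 to 431 in pair-fed *Apoe* KO mice. *Ltf* was at 0 in pair-fed WT mouse 1 and EtOH-fed *Apoe* KO mouse 5.

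**Figure D5:**
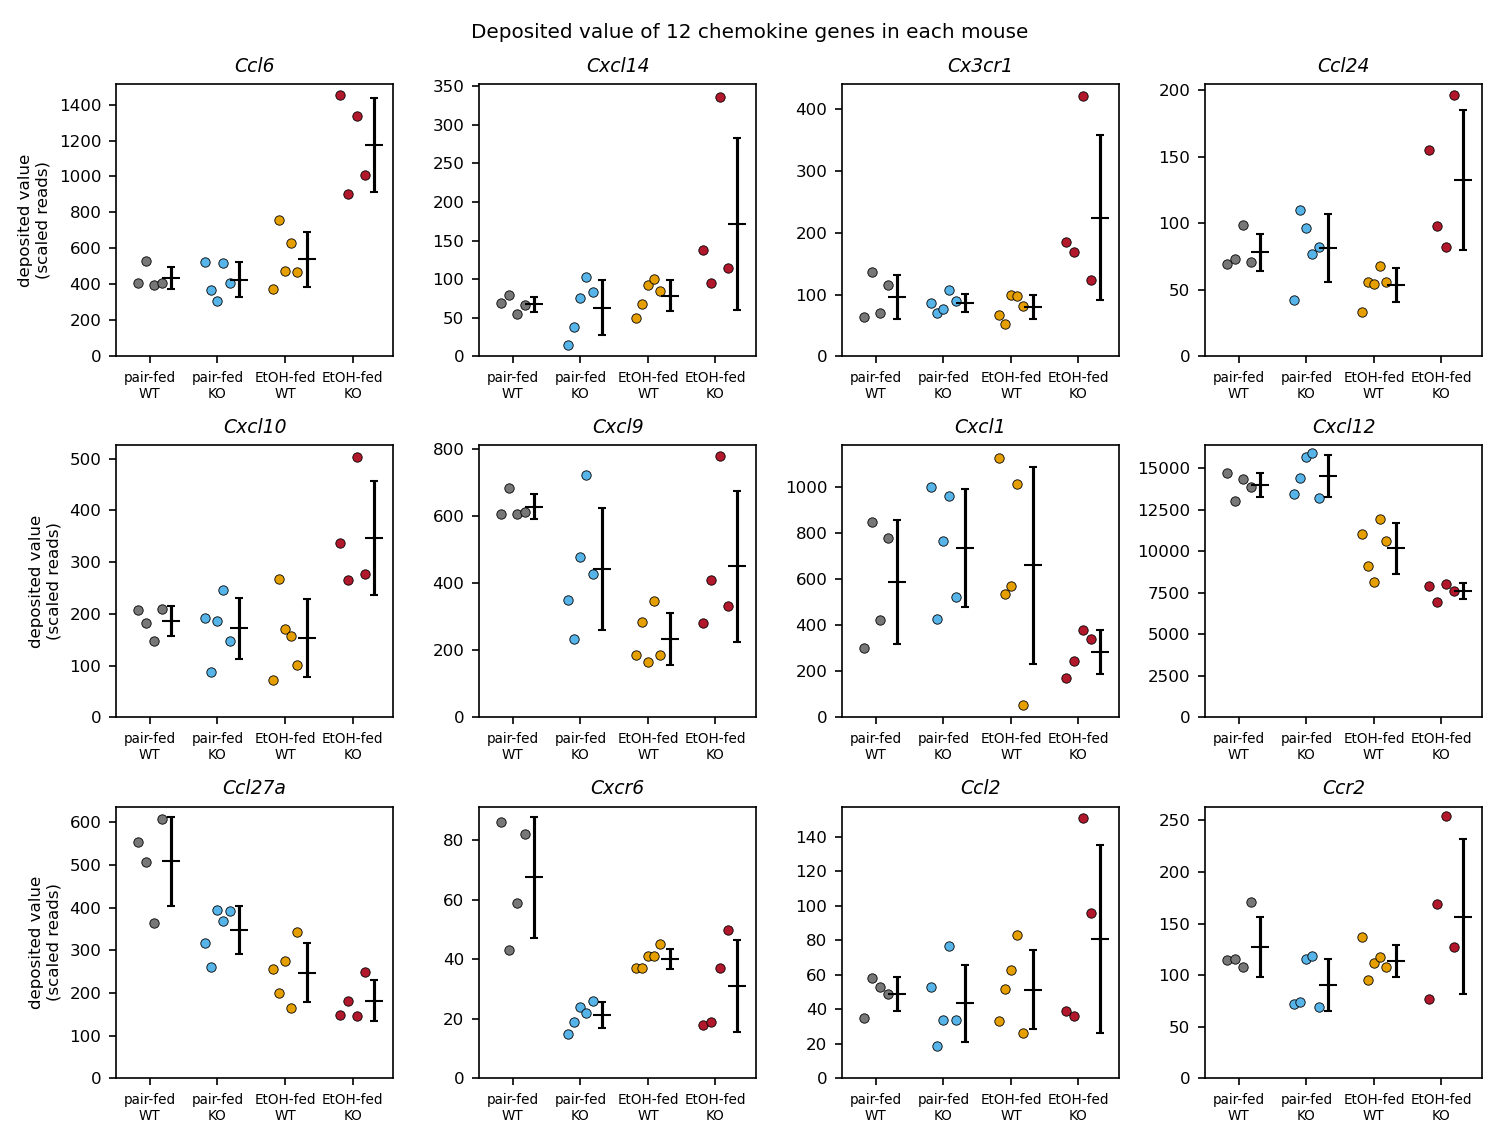
Deposited value of 12 members in each mouse of the 4 groups (linear axes from 0), with the mean and SD beside the points (n = 4 or 5). EtOH-fed *Apoe* KO mice are the highest group for *Ccl6* (905 to 1454) and the lowest for *Cxcl12* (6953 to 7999), while *Cxcl1* in EtOH-fed WT mice ranges from 54 to 1129.

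Of the atypical receptors, *Ackr3*, which scavenges CXCL12, was 2.56-fold higher in EtOH-fed than in pair-fed *Apoe* KO mice (log2 1.36, SE 0.37, limma adjusted p = 0.0186). Pair-fed WT mice had *Ackr3* values of 69, 37, 25 and 72 and pair-fed *Apoe* KO mice of 61, 32, 27, 74 and 29. The EtOH-fed groups had 41, 35, 76, 34 and 52 in WT mice and 68, 100, 106 and 177 in *Apoe* KO mice. The lowest EtOH-fed *Apoe* KO mouse, mouse 1 at 68, was under the highest pair-fed mouse at 74. Without mouse 1 the difference was 1.57 (adjusted p = 0.0146), and the call was lost in 2 of 15 alternatives, with the mouse number as a block and without EtOH-fed *Apoe* KO mouse 5 (1.11; adjusted p from 0.0109 to 0.0689). Between genotypes in EtOH-fed mice *Ackr3* differed by 1.21 (SE 0.33, limma adjusted p = 0.0522), which was called without EtOH-fed *Apoe* KO mouse 1 (1.42, adjusted p = 0.0368) or EtOH-fed WT mouse 3 (1.39, adjusted p = 0.0337), with a pseudocount of 10 (1.07, adjusted p = 0.0482), with only genes of at least 10 in every mouse (adjusted p = 0.0455), with array quality weights (1.27, adjusted p = 0.0439) and with the block (1.39, adjusted p = 0.0175). *Ackr1*, *Ackr2*, *Ackr4* and *Ccrl2* were not called by limma in any comparison, with genotype differences in EtOH-fed mice from -0.26 to 0.48, although *Ackr4* was called between diets in *Apoe* KO mice without EtOH-fed *Apoe* KO mouse 4 (1.17, adjusted p = 0.0187). Of 8 sinusoidal endothelial markers 7 were higher in EtOH-fed than pair-fed *Apoe* KO mice, with and without mouse 1 (sum 8932 to 14765 against 5275 to 7546, 0 markers at 0), as *Ackr3* was. Over all genes 16.3% were higher in that comparison. The same markers are given in 2 other comparisons. With ethanol in WT mice 5 of 8 were higher (sum 9826 to 13876 against 7928 to 9047), against 6.19% of all genes, and *Ackr3* differed by -0.03. Between EtOH-fed genotypes 3 of 8 were positive (median -0.12), and 0 were called by limma or had an unadjusted p under 0.05, against 18.9% of all genes. Without mouse 1, 3 of 8 were positive (median -0.09), with 0 called and 1 at an unadjusted p under 0.05 by limma. Their part in *Ackr3* was not tested. Exons of some members overlap with other genes, which makes their values less certain. *Ackr1* shares 25.7% of its exon bases with *Cadm3*, *Ccr9* 18.8% with a gene model on the opposite strand, *Cxcl16* 18.3% with *Zmynd15*, *Ackr4* 8.9% with *Acad11* and *Cxcl10* 5.9% with *Art3*, and *Ccl25*, *Ccl27a* and *Cx3cr1* share at most 2.7%.

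The 7 CC ligand genes on chromosome 11 (*Ccl2*, *Ccl3*, *Ccl5*, *Ccl6*, *Ccl7*, *Ccl8* and *Ccl9*) had positive genotype differences in EtOH-fed mice in 7 of 7 cases, with a median of 1.14, and 1, *Ccl6*, was called. In pair-fed mice 2 of 7 were positive (median -0.05), and with ethanol in WT mice 2 of 7 (median -0.26). The 5 CXC ligand genes on chromosome 5 were divided in EtOH-fed mice, 4 positive and 1 negative (*Cxcl1*). Of the 8 receptor genes on chromosome 9, 5 were positive, and 1, *Cx3cr1*, was called. Over all genes in EtOH-fed mice 4.69% were called and the median was 0.11. The CC ligands of chromosome 11 other than *Ccl5* are also among the monocyte ligands counted above.

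RNA of receptor signalling genes was measured for 36 of 39 listed genes. They cover G protein subunits, arrestins, receptor kinases, phosphoinositide kinases, Src-family kinases and Rac regulators together with ligand-binding proteoglycans and further chemokines. Signalling itself was not measured, and the part of cell numbers in these values was not tested. In EtOH-fed mice 6 of 36 were higher in *Apoe* KO mice and 0 lower, against 4.25% and 0.445% of all genes, with a median of 0.31 against 0.11, and the same 6 were called without EtOH-fed *Apoe* KO mouse 1. The largest were the Rac exchange factor *Vav1* (1.18), *Dock2*, which activates Rac in migrating leukocytes (1.18), *Pik3r5*, a kinase subunit downstream of G proteins (1.15), the leukocyte GTPase *Rac2* (1.13) and the leukocyte phosphoinositide kinase *Pik3cd* (0.99), with limma adjusted p from 0.0095 to 0.0485. In pair-fed mice 0 of 36 were called by limma, with 7 at an unadjusted p under 0.05, against 19.9% of all genes. Ethanol in WT mice lowered 5 of 36, among them *Rac2* (-1.10), *Was*, an actin regulator (-1.03), *Dock2* (-0.90) and *Pik3cd* (-0.85), and raised 3, with *Gpr182*, an atypical chemokine-binding receptor of endothelium, changing most (1.06), against 6.52% of all genes lower and 6.19% higher. In *Apoe* KO mice 6 of 36 rose with ethanol, against 16.3% of all genes, *Gpr182* (1.21) and the arrestin *Arrb1* (0.98) the most, and the heparan sulfate proteoglycan *Sdc4* fell by 0.94 on the log2 scale, 1 of 36 against 6.92% of all genes. Without mouse 1 these counts were 7 and 1.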

How the data were processed

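Liver RNA of 18 mice was analysed from 1 deposited table. According to the methods and labels, the authors used Trimmomatic for trimming, HISAT2 for alignment to GRCm38 and featureCounts for counting per gene (versions not given in the sources used here). The deposited values per mouse are a signal, read counts brought to almost the same sum per mouse and rounded, and how they were scaled is not given in the sources used here. The deposited columns of the authors' own comparison (a mean, log2 fold changes with their errors, a test statistic and rank scores, p-values) and a whole number per gene of unstated meaning were not used. Of 15247 lines, 15052 genes with 1 line per Ensembl identifier were kept. No filter was applied in the main analysis.

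Values were tested as log2(value + 1) with limma 3.58.1 in R 4.3.3 (empirical Bayes with intensity trend, two-sided), using the mice of the groups compared and all 18 for the interaction. P-values were adjusted over all 15052 genes (Benjamini-Hochberg), and 0.05 was the threshold. The 95% intervals joined limma's standard errors to a t quantile with the residual degrees of freedom only (7 between groups, 14 for the interaction). They are wider than intervals matched to limma's p-values, which use more degrees of freedom, and can include 0 where the unadjusted p is under 0.05. Steps were tested on simulated data. No count test was run because whole reads could be recovered in 16 of 18 mice only. The p-values measure the spread between these mice, 1 library each, and the precision of low members is limited by the reads behind them. Exon lengths and positions came from GENCODE M21, and Python 3.11.15, pandas 2.3.3 and numpy 2.4.6 were used for the rest. Members described singly were those called in any comparison and ligand and receptor pairs listed in advance (*Cxcl1*, *Cxcl2* and *Cxcr2*, *Ccl2* and *Ccr2*, *Cx3cl1* and *Cx3cr1*, *Cxcl9*, *Cxcl10* and *Cxcr3*, *Ccl5*, *Cxcl16* and *Cxcr6*, *Cxcl12* and *Cxcr4*), and of other pathway genes at most the 5 called genes with the largest change per comparison. A few items that the name rule or the lists also hold are not reported here. The members and lists were chosen with earlier results of these data known. Alternatives were size factors, a pseudocount of 10, only genes with at least 10 in every mouse, all 4 groups in 1 fit, array quality weights, the mouse number as a block and leaving out each mouse. Counts over the marker and pathway lists without EtOH-fed *Apoe* KO mouse 1 were added after the data were seen.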

Additional observations from a re-analysis of the deposited data

Results flagged for a closer look

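Each of 132 sets of values (33 members in 4 groups) was checked on the scale of log2(value + 1), while the values printed below are as deposited. In 11 sets a mouse's gap to its nearest neighbour, divided by the whole range of the group, was above Dixon's critical value, where chance gives about 1 in 20, or 6.6. Of these, 6 were in pair-fed WT mice. *Ccl24* was 99 in mouse 3 (share 0.844), *Ccl6* 530 in mouse 2 (0.882), *Ccl7* 0 in mouse 1 (0.982), *Ccr2* 171 in mouse 4 (0.845), *Cxcl16* 508 in mouse 4 (0.887) and *Cxcl9* 682 in mouse 2 (0.904). In pair-fed *Apoe* KO mice *Ccrl2* was 35 in mouse 2 (0.746) and *Cxcr4* 8 in mouse 1 (0.749). In EtOH-fed WT mice *Ccl5* was 67 in mouse 4 (0.844), *Ccr1* 9 in mouse 2 (0.872) and *Cxcl1* 54 in mouse 5 (0.754).

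The difference between *Apoe* KO and WT mice was larger under ethanol than in pair-fed mice for *Ccl6* (interaction 1.19 on the log2 scale, limma adjusted p = 0.0251, from 0.0145 to 0.121 over the alternatives).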

How the results depend on the processing

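Of 263 values of the 17 single-gene calls under the alternatives, 213 kept the call, 50 lost it and 0 reversed, and the cause was not tested. Between EtOH-fed genotypes 4 members were called, 7 with all 4 groups in 1 fit and 1 to 5 without 1 mouse (1 without EtOH-fed WT mouse 1, 2 without EtOH-fed *Apoe* KO mouse 4 or 5 or EtOH-fed WT mouse 2 or 5). Between pair-fed genotypes 1 was called and 0 to 2 without 1 mouse, 0 without pair-fed WT mouse 1, 2 or 4 or pair-fed *Apoe* KO mouse 1, 2, 3 or 4, and 2 without pair-fed WT mouse 3. Diet calls were 3 in WT mice (2 to 4 without 1 mouse) and 8 in *Apoe* KO mice (6 to 11). The interaction gave 1 call and 0 to 4 without 1 mouse, 0 without pair-fed WT mouse 2 or 4, EtOH-fed *Apoe* KO mouse 4 or EtOH-fed WT mouse 1, 2 without pair-fed *Apoe* KO mouse 4 or EtOH-fed WT mouse 2, 3 or 5, 3 without EtOH-fed WT mouse 4 and 4 without EtOH-fed *Apoe* KO mouse 1. It gave 2 calls with a pseudocount of 10 and 2 with size factors, 1 higher and 1 lower.

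With the mouse number as a block, which uses only numbers present in both groups, 9 members were called between EtOH-fed genotypes, 0 between pair-fed genotypes and 2 in the interaction. Same-numbered mice correlated in their deviations from the group means by 0.188, -0.02, 0.230 and 0.144 between EtOH-fed genotypes. There 3 of 4 *Apoe* KO mice correlated best with their own number, against 1 of 4 mice in each other comparison. The mean same-number correlation was 0.015 between pair-fed genotypes, -0.048 between diets in WT mice and 0.036 between diets in *Apoe* KO mice. The labels do not say that a number marks a shared batch, so the numbers were not taken as pairs.

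Depth limits the low members, 18 of which had under 10 estimated reads in some mouse.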
